A study of Mus musculus with 18 samples.

Results

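C2C12 is a mouse myoblast line that divides in serum-rich medium and fuses into myotubes when serum is lowered. The comparison described here sets the miRNAs recovered from undifferentiated C2C12 lysate with a 3′UTR bait of MRTF-A against the miRNAs of the input RNA of the same state. Libraries were chosen by group alone: 3 bait eluates and 3 inputs, 6 of the 18 libraries of the series, with all 2042 names of the deposited table kept (1908 of mouse and 134 of human). Of these names, 1240 had a read in the 6 libraries and 268 held enough reads to be tested. Both groups are unmodified C2C12 cells labelled as myoblasts and as undifferentiated, grown in DMEM with 10% fetal calf serum. The labels repeat the differentiation treatment (7 days in 2% horse serum) for undifferentiated samples too, so the state was read from the titles and the differentiation field. Reference groups of 3 libraries each were the eluates of an MS2 control from undifferentiated cells, and the inputs and MRTF-A bait eluates from cells differentiated for 7 days. Nothing in the labels tells whether the 3 libraries of a kind are separate cultures. The p-values thus reflect only library-to-library spread, which could be technical. Libraries are named A, B and C by the suffix of their column.

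In miTRAP, an RNA bait tagged with hairpins for the MS2 coat protein is fixed to a resin, incubated with cell lysate and eluted with the miRNA complexes it holds. A miRNA hairpin yields a 5p and a 3p arm. One of them, the guide, is loaded into an Argonaute protein, and its seed (bases 2 to 8) pairs with complementary sites, mostly in 3′UTRs, while the other arm is usually degraded. MRTF-A, the product of Mrtfa, is an actin-regulated coactivator of serum response factor and acts on muscle and cytoskeletal genes. The labels give neither the sequence nor the species of the bait, so sites were read from the longest annotated mouse Mrtfa 3′UTR.

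The sequences below carry the main contrasts of the comparison. Mature miRNAs are from RefSeq on GRCm38.p6, with the seed in capitals. The first set holds 4 miRNAs with a seed match in the Mrtfa 3′UTR: miR-31-5p and miR-3103-3p, the most enriched names with a match, the muscle miRNA miR-206-3p, which rose, and miR-21a-5p, which was depleted.
miR-31-5p: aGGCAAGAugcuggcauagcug
miR-3103-3p: uAACCUCUgauccuucccacag
miR-206-3p: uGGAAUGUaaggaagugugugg
miR-21a-5p: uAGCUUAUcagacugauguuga
The matching stretches of the Mrtfa 3′UTR follow, 5′ to 3′ on the minus strand of GRCm38, with the match in capitals. They lie at chr15:81012281-81012287, chr15:81013244-81013250, chr15:81012498-81012504 and chr15:81013117-81013123. The match of miR-31-5p covers bases 2 to 7 followed by an A, and ends at the last annotated base of the 3′UTR. The other 3 cover bases 2 to 8.
site of miR-31-5p: aacaaaaacactgaCTTGCCA
site of miR-3103-3p: gctagggaagggtcAGAGGTTg
site of miR-206-3p: ctctccactcacccACATTCCg
site of miR-21a-5p: tgtgggcagtgggcATAAGCTg
The second set shows miRNAs that share a seed and differ in the rest of the sequence. Members of 1 seed were recovered to very different degrees.
let-7b-5p: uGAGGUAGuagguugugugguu
let-7c-5p: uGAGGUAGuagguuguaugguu
let-7a-5p: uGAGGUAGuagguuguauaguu
miR-98-5p: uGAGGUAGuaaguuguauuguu
miR-181b-5p: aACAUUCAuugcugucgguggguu
miR-181d-5p: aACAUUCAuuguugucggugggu
miR-181a-5p: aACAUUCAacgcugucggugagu
miR-181c-5p: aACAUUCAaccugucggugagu
The third set holds 2 families whose tested members all rose.
miR-34b-5p: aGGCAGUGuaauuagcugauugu
miR-449a-5p: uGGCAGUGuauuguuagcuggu
miR-34a-5p: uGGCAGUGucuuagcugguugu
miR-301a-3p: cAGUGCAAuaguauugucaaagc
miR-130b-3p: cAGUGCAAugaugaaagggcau
miR-130a-3p: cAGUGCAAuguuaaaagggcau
The last set gives opposite arms of hairpins that parted ways between input and eluate. miR-31-5p, shown first above, comes from the Mir31 hairpin on the minus strand of chromosome 4 (chr4:88910614-88910635), as does miR-31-3p (chr4:88910577-88910599).
miR-31-3p: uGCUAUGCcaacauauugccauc
miR-199a-5p: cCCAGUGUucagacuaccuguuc
miR-199a-3p: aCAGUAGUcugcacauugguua
miR-214-5p: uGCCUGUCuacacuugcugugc
miR-214-3p: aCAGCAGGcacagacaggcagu

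Recovered reads numbered 294112 to 860828 per input and 107165 to 352674 per bait eluate. A single read was worth 1.66 to 3.05 units in the inputs and 8.31 to 15.3 units in the eluates, so low levels are read more coarsely in the eluate. Levels are the deposited normalised read shares (CPM), given as mean ± SD over n = 3 libraries. The values of a library do not add up to the nominal total, because the authors' scaling uses an effective library size. Fold changes are bait over input on the log2(CPM + 10) scale with a standard error, tested with limma and adjusted over the 268 names. The 10 is a pseudocount that understates changes of scarce miRNAs. The eluate was the more concentrated kind of library. Its 5 most abundant names took 81.1 ± 2.80% of reads, against 64.1 ± 4.05% in the input, and 9 to 12 names made up 90% of eluate reads, against 36 to 43 in the input.

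The bait eluate was a heavily re-weighted sample of the cell's miRNAs. Of the 268 names, 70 rose (26.1%) and 139 fell (51.9%), 78% in all, and 219 (81.7%) had eluate and input libraries that did not overlap. The names that rose made up 11.4% of input reads and 93.7% of eluate reads, and those that fell 79.2% and 2.17%. These shares describe classes drawn from the same values and were not tested. Among the 70 tested names with at least 1000 CPM in the input, 48 fell and 13 rose. Of the 70 names that rose, 23 had an input mean under 10 CPM. These 23 passed the filter on reads only through the eluates, so their direction was fixed by that choice. Changes over 8-fold on the fitted scale numbered 40 up and 73 down. A CPM is a share of the recovered reads, not an amount bound. Where the 2 states are compared, bulk libraries cannot tell fewer cells of a kind from less RNA per cell.

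The balance of rises and falls depended on the scaling. The median fold change of all names tested was -1.56 with the deposited scaling, -2.24 with library totals, -0.40 with RLE factors and -0.29 in edgeR. Rises made up 33.5% of calls with the deposited scaling, 25.1% with library totals, 48.1% with RLE factors, 51.0% in edgeR and 51.5% in DESeq2. The same direction was called for 142 names under all 6 scalings and tests run, 54 higher and 88 lower, and these are called stable below. In the authors' deposited table, 248 names passed an FDR of 0.05 in this comparison (89 higher and 159 lower). Of these, 199 were called here with the same sign, 80.2% of the authors' calls and 95.2% of the calls made here.

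**Figure D1:**
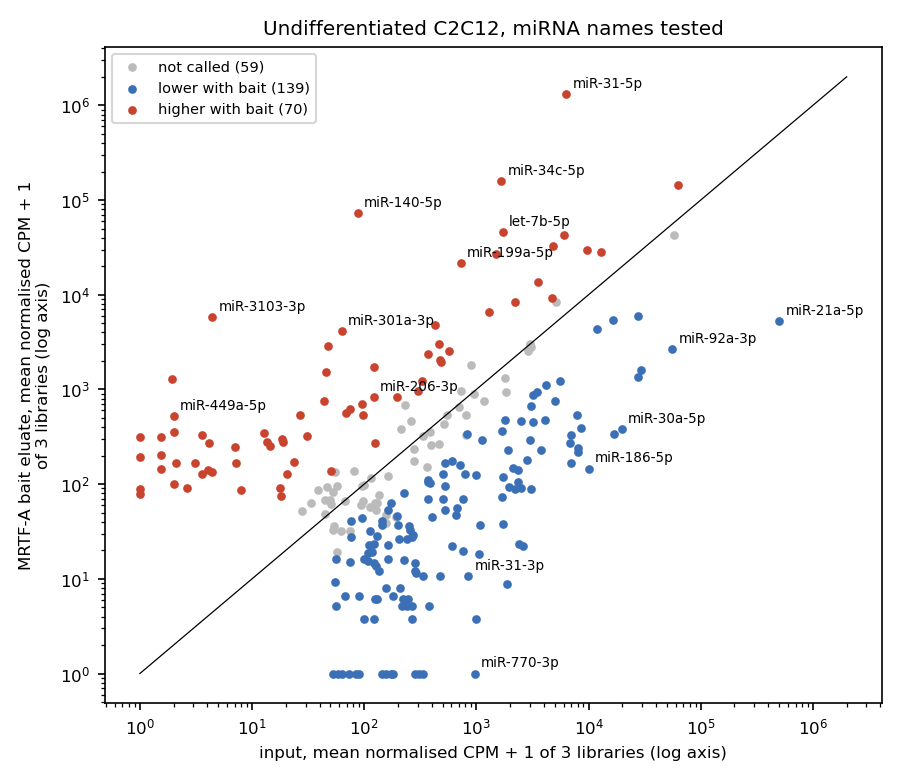
Mean normalised CPM + 1 in the input (horizontal log axis) and in the MRTF-A bait eluate (vertical log axis) for the 268 names tested, 3 libraries per group. Red points rose (70), blue points fell (139), grey points were not called (59), and the line marks equal levels. miR-31-5p stands at the top at 1303195 CPM in the eluate, and miR-21a-5p, the most abundant input name at 501978 CPM, lies far below the line.

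miR-31-5p, a miRNA known for roles in cell migration and in muscle satellite cells, became the most abundant name of the eluate. Its level was 4899.7, 5862 and 8273 CPM in inputs A, B and C and 867195, 1948995 and 1093394 CPM in the eluates. Every eluate lay far above every input. The rise was 7.63 ± 0.35 (adjusted p = 6.87e-12), 9.18 above the median of all names, and it was stable across scalings.

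miR-140-5p, the 5p arm of a hairpin best known from cartilage, had the largest fold change at a pseudocount of 10. With a pseudocount of 1 miR-3103-3p exceeded it (10.27 against 9.69), as it did in edgeR and in DESeq2. It stood at 79.2, 75 and 106 CPM in the inputs and at 75186, 57479 and 84317 CPM in the eluates. It thus moved from a scarce name to the fourth most abundant one, with no overlap of the groups. The change was 9.54 ± 0.48 (adjusted p = 8.59e-12).

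miR-199a-5p, a miRNA of mesenchymal cells, rose from 724 ± 286 to 21666 ± 7778 CPM (4.88 ± 0.33, adjusted p = 4.76e-10). miR-185-5p, which was chosen after its values were seen, rose from 44.3 ± 11.3 to 1543 ± 699 CPM (4.73 ± 0.45, adjusted p = 2.87e-08). Both were stable. miR-185-5p (31.5 CPM in input C) would not have passed the filter on reads on its inputs alone.

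The miR-34 and miR-449 family, miRNAs that share a seed and include targets of p53, rose in its tested members. All 5 tested members were called higher, under each of the 6 scalings, with a median of 5.60 against -1.56 over all names. Of all 268 names 26.1% rose, and 54 rose under all 6. miR-449a-5p, with 1 input read, passed the filter on reads only through the eluates, so its direction was fixed by that choice. miR-449c-5p (17 input reads) and miR-34b-5p (13.9 CPM in input B) would not have passed on their inputs alone. miR-34c-5p was the second most abundant name of the eluate, with 1529, 1361 and 2087 CPM in the inputs and 130364, 180405 and 160340.2 CPM in the eluates (6.57 ± 0.35, adjusted p = 2.01e-11). Its lowest eluate was far above its highest input. miR-34b-5p rose from 46.1 ± 28.8 to 2877 ± 592 CPM (5.84 ± 0.70, adjusted p = 6.02e-07). miR-449a-5p had a single input read against 142 eluate reads, 692-fold (95% interval 122 to 27539) higher, where the interval covers counting error only. miR-34a-5p, the member most often induced by p53, rose least, from 469 ± 205 to 2065 ± 737 CPM (2.16 ± 0.43, adjusted p = 0.000162). The sixth listed member, miR-449b, had too few reads to test, with 3 in the input and 2 in the eluate.

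The miR-130 and miR-301 family, a group tied to growth and to vascular and fat cell biology, behaved alike in direction. Its 4 members all rose under each of the 6 scalings, with a median of 4.01. Over all names 26.1% rose, around a median of -1.56. miR-301b-3p, with 4 input reads, passed the filter on reads only through the eluates, so its direction was fixed by that choice. miR-301a-3p (44.5 CPM in input B) would narrowly not have passed on its inputs alone. miR-301a-3p was at 54.8, 44.5 and 87.8 CPM in the inputs and at 2576, 4827 and 5029 CPM in the eluates (5.83 ± 0.44, adjusted p = 1.32e-09). miR-301b-3p went from 3.13 ± 3.05 to 268 ± 102 CPM (4.35), miR-130b-3p from 121 ± 31 to 1739.6 ± 725 CPM (3.66) and miR-130a-3p from 429.8 ± 84.3 to 4833 ± 1329.9 CPM (3.44). Eluate and input libraries did not overlap in any of the 4, as in 81.7% of all names.

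Several of the largest rises were names that the input barely contained. miR-3103-3p had 4 reads in the 3 inputs together and 1683 in the eluates, at 5795, 9221 and 2458 CPM (8.58 ± 0.71, adjusted p = 5.22e-09). Its eluate libraries differed among themselves by several fold, yet each was far above the inputs. miR-7649-3p had 1 input read and 369 eluate reads, 1799-fold (95% interval 321 to 71259.8) higher. Also with 1 input read each, miR-504-3p was 502-fold (95% interval 88.2 to 20028) and miR-7048-5p 399.9-fold (95% interval 69.8 to 15983) higher. miR-669l-5p had no input read and 91 eluate reads, at least 41.7-fold higher against a floor of 3 reads per library. The tested names without an input read were miR-669l-5p, miR-568, miR-7212-5p and miR-669k-5p. These names, and those above with few input reads, passed the filter on reads only through the eluates, so their direction was fixed by that choice.

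**Figure D2:**
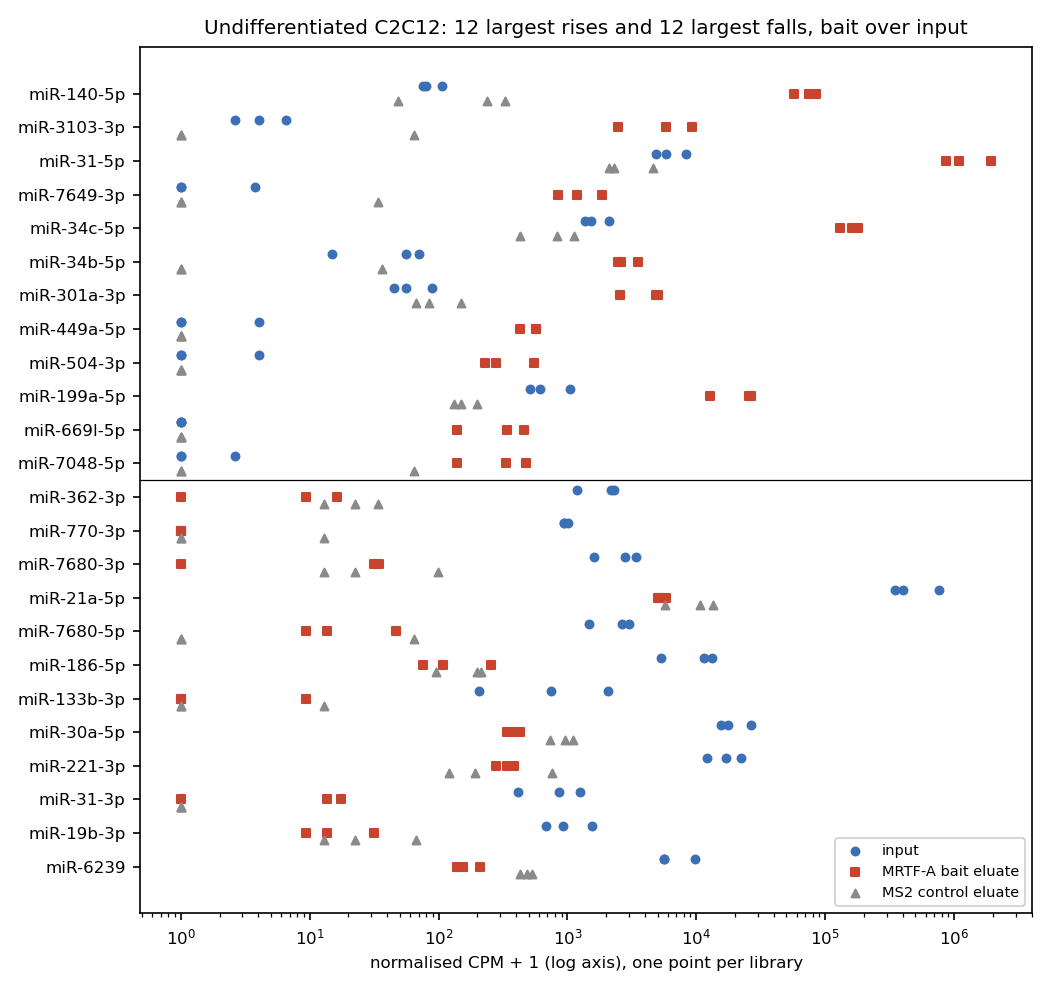
Normalised CPM + 1 (log axis) of the 12 largest rises (above the line) and the 12 largest falls (below) by library, with inputs as circles, MRTF-A bait eluates as squares and MS2 control eluates as triangles. In all 24 names the 3 eluates lie apart from the 3 inputs, which was a condition of their choice. For miR-21a-5p the MS2 control eluates lie near the bait eluates.

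The let-7 family, guide RNAs associated with differentiated and non-dividing cells, was, among the listed families that rose, the one with the largest share of reads, 7.40% to 11.2% in the inputs and 10.1% to 19.3% in the eluates. Of 9 tested members 7 rose and 1 fell, against 26.1% and 51.9% of all names. The median was 1.61, and 4 rises were stable (let-7a-5p, let-7b-5p, let-7c-5p and let-7d-5p). let-7b-5p rose most, from 1075, 2137 and 1933 CPM in the inputs to 45458, 54547 and 37583 CPM in the eluates (4.78 ± 0.34, adjusted p = 5.79e-10). Every eluate was far above every input. let-7c-5p rose from 5980.2 ± 2444 to 42947 ± 13509 CPM (2.88 ± 0.31, adjusted p = 1.85e-07) and let-7d-5p from 1301 ± 539 to 6549.7 ± 2205 CPM (2.36 ± 0.35, adjusted p = 7.4e-06). let-7a-5p rose from 3513 ± 1464 to 13537 ± 5522 CPM (1.93 ± 0.36, adjusted p = 0.0001).

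The remaining members lay closer to no change. let-7f-5p, abundant on both sides, was at 43077, 66529 and 78721 CPM in the inputs and 157439, 210369.7 and 67756 CPM in the eluates (1.10 ± 0.34, adjusted p = 0.00721). Its groups overlapped, because eluate C lay below input C. Without eluate B its call was lost (0.76, adjusted p = 0.0501), as it was with library totals (0.18), with TMM factors of the compared libraries (0.67) and in a fit to the compared libraries only (adjusted p = 0.0653). let-7e-5p (0.97) and let-7g-5p (1.61) rose, and both calls were lost with library totals (0.04 and 0.69). That of let-7e-5p was also lost with TMM factors of the compared libraries (0.53, adjusted p = 0.222) and without input A or eluate B (adjusted p = 0.0792 and 0.0789). let-7i-5p was not called at 0.66 ± 0.38 (adjusted p = 0.121). Its sign turned with library totals (-0.27), and it was called higher with RLE factors (1.94), in edgeR (1.98) and in DESeq2 (2.01). miR-98-5p fell from 3223 ± 851 to 875 ± 295 CPM (-1.90 ± 0.76, adjusted p = 0.029), a call lost with RLE factors, in edgeR, in DESeq2, with a pseudocount of 1, without a filter, and without input C, eluate B or eluate C. How the authors counted reads that match several let-7 sequences is not given in the sources used here, so the split between near-identical members is uncertain.

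**Figure D3:**
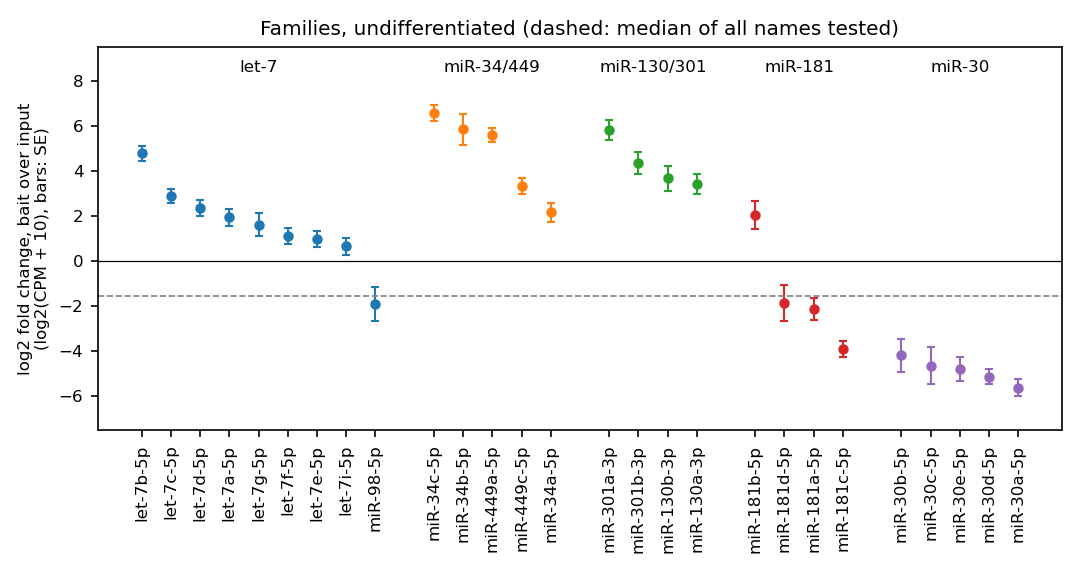
Log2 fold change of bait over input with its standard error for every tested member of 5 families. The dashed line is the median of the 268 names (-1.56). All members of the families of miR-34 and of miR-130 lie above 0 and those of miR-30 below the dashed line, while let-7 spans -1.90 to 4.78 and miR-181 spans -3.90 to 2.04.

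The most abundant miRNA of the input was among the most depleted. miR-21a-5p, common in dividing cells, was at 344878, 401474 and 759582 CPM in the inputs and at 5795, 5092 and 5016 CPM in the eluates. Input C was the highest, and the eluates were close to each other and far lower. The fall was -6.48 ± 0.32 (adjusted p = 8.59e-12), -4.92 relative to the median, and was stable. miR-21c, a mouse name with the same seed, had 184 input reads and none in the eluate, at least 3.97-fold lower. Of the other abundant input names, miR-92a-3p fell from 55651 ± 14231 to 2667 ± 174 CPM (-4.35 ± 0.36, adjusted p = 4.58e-09). miR-22-3p, a miRNA of striated muscle growth, fell from 29067 ± 7095 to 1591 ± 197 CPM (-4.16 ± 0.29, adjusted p = 5.79e-10). miR-6244 was not called, at 57504 ± 22525 and 43232 ± 9570.0 CPM (-0.35 ± 0.57, adjusted p = 0.58), and its sign turned with RLE factors (0.94), in edgeR (0.86) and in DESeq2 (0.81), while with library totals it fell (-1.27, adjusted p = 0.0449).

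The miR-30 family, abundant in muscle and epithelia, fell as a whole. All 5 tested members fell under each of the 6 scalings, with a median of -4.80. Of all 268 names 51.9% fell, and 88 fell under all 6. miR-30b-5p, with 1 eluate read, passed the filter on reads only through the inputs, so its direction was fixed by that choice. miR-30c-5p, with 10 eluate reads, would not have passed on its eluates alone. miR-30a-5p was at 15564, 17665 and 26384 CPM in the inputs and at 337, 382 and 429 CPM in the eluates (-5.63 ± 0.37, adjusted p = 3.85e-10). miR-30d-5p fell from 8083 ± 2181 to 216 ± 38.7 CPM (-5.13). No eluate of either name reached the level of any input.

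The growth-promoting miR-17~92 cluster and its paralogs fell too. All 10 tested names were called lower, with a median of -3.92, and 8 were stable. miR-363-3p, miR-19a-3p, miR-106b-5p and miR-19b-3p had 0, 1, 1 and 4 eluate reads. These members passed the filter on reads only through the inputs, so their direction was fixed by that choice. miR-18a-5p, with 5 eluate reads, would not have passed on its eluates alone. Of all names 51.9% fell, around a median of -1.56. miR-19b-3p, from 1053 ± 448 to 17.2 ± 11.9 CPM (-5.29 ± 0.63, adjusted p = 5.06e-07), and miR-25-3p, from 8086 ± 1827 to 242 ± 108 CPM (-5.08 ± 0.67, adjusted p = 2.17e-06), fell most. miR-17-5p was the weakest at -1.56 ± 0.67 (adjusted p = 0.0402), and its call was lost with RLE factors, in edgeR, in DESeq2, with a pseudocount of 1 and without a filter. It was also lost without input A, input C, eluate A or eluate C (adjusted p = 0.0783, 0.143, 0.142 and 0.0595).

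Further strong falls were spread over unrelated names. miR-362-3p had 2490 input reads and 2 eluate reads, 255-fold (95% interval 70.6 to 2109) lower. miR-770-3p, of the imprinted Dlk1-Dio3 region, had 1239 input reads and none in the eluate, at least 26.6-fold lower. Both arms of miR-7680 fell (-6.59 for 3p and -6.33 for 5p). miR-186-5p fell from 9996 ± 4173 to 145 ± 94.4 CPM (-6.08 ± 0.53, adjusted p = 1.1e-08), and miR-6239 from 6973 ± 2371 to 167 ± 36.4 CPM (-5.27 ± 0.36, adjusted p = 5.18e-10). In all, 14 tested names had no eluate read, among them miR-128-3p and miR-145a-5p. These names, and names with 1 or 2 eluate reads such as miR-133b-3p and miR-362-3p, passed the filter only through the inputs. Their direction was fixed by that choice.

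The muscle miRNAs did not move as one. Of the 10 listed myomiRs, miRNAs expressed mainly in striated muscle, 5 were tested, with 1 higher and 2 lower, against 26.1% and 51.9% of all names. The counts were 3 and 2 with RLE factors and 0 and 3 with library totals. miR-206-3p, a skeletal muscle miRNA, was at 171, 77.8 and 113 CPM in the inputs and 1717, 432 and 353 CPM in the eluates (2.38 ± 0.53, adjusted p = 0.0005). Eluate A was several fold above B and C, but every eluate exceeded every input. The call was lost with library totals (1.48, adjusted p = 0.0526). miR-133b-3p, from the same locus as miR-206, went the other way, from 2052, 206 and 739 CPM in the inputs to a single eluate read, 245-fold (95% interval 43.9 to 9679.5) lower. miR-133a-3p fell from 605 ± 552 to 21 ± 36.4 CPM (-4.52 ± 0.80, adjusted p = 5.69e-05). With 5 eluate reads, miR-133a-3p would not have passed the filter on reads on its eluates alone. The inputs of both miR-133 names spread widely, with A highest and B lowest. miR-486-5p, a miRNA of muscle and blood, was not called at -0.16 ± 0.37 (adjusted p = 0.707). miR-3107-5p, listed under its own name, had nearly the same reads (3820 and 739 in input and eluate, against 3843 and 727), and how reads matching both names were counted is not given. miR-486-5p turned to a called rise with RLE factors (1.12), in edgeR (1.29) and in DESeq2 (1.21), and to a called fall with library totals (-1.08, adjusted p = 0.0495). miR-1a-3p had no input read and 10 eluate reads, too few to test.

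The miR-23, miR-27 and miR-24 clusters, transcribed together, split by member. Of 5 tested names 1 rose and 4 fell, against 26.1% and 51.9% of all names. miR-24-3p rose from 2159, 1445 and 2994 CPM in the inputs to 11161, 7369 and 6453 CPM in the eluates (1.94 ± 0.41, adjusted p = 0.000313). All its eluates were above all inputs, and the call was lost with library totals (1.01, adjusted p = 0.0874). miR-23b-3p fell from 469.9 ± 173 to 9.74 ± 8.67 CPM (-4.65), miR-27a-3p from 4971 ± 1791 to 759.5 ± 208 CPM (-2.66) and miR-27b-3p from 11926 ± 2158 to 4354 ± 902 CPM (-1.46). With 3 eluate reads, miR-23b-3p passed the filter on reads only through the inputs, so its direction was fixed by that choice. The fall of miR-27b-3p was not called with RLE factors (-0.17), in edgeR (-0.15) or in DESeq2 (-0.19).

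In the smaller families most tested names fell, as did 51.9% of all names, whose median was -1.56. Both tested names fell for miR-26 (median -3.09), miR-29 (-2.30), miR-99 and miR-100 (-3.20) and miR-125 (-2.34), and 2 of 3 fell for miR-15/16 (-1.37, above the median of all names). miR-125a-5p had no eluate read and passed the filter only through the inputs. miR-29b-3p and miR-322-5p, with 9 and 4 eluate reads, would not have passed on their eluates alone. With RLE factors the falls of miR-29 and of miR-125 were no longer called. In edgeR and in DESeq2 the falls of miR-125 were not called either, and for miR-15/16 no member fell and 1 rose.

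Opposite arms of the same hairpin were often recovered to different degrees. The question was asked as the difference between the 5p and 3p arm on the log2(CPM + 10) scale, in which the scaling of a library cancels but for the pseudocount. Of 44 hairpins with both arms tested, 25 changed this difference between input and eluate (56.8%), 15 toward the 5p arm and 10 toward the 3p arm. With a pseudocount of 1, 21 changed, 12 and 9. In 8 hairpins the 5p arm rose while the 3p arm fell, in 2 the reverse, in 18 both arms fell, and in none were both arms called higher. The arm with the higher mean differed between input and eluate in 15 hairpins.

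miR-140 showed the largest shift. Its 5p minus 3p difference was -6.28, -6.88 and -6.26 in the inputs and 7.37, 7.14 and 8.02 in the eluates, a change of 13.98 ± 0.52 (adjusted p = 3.87e-22). In every input the 3p arm dominated and in every eluate the 5p arm. miR-140-3p itself fell from 8588 ± 1558 to 386 ± 65.7 CPM.

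For miR-31 the 5p arm led on both sides, and the gap widened from 2.51, 3.79 and 2.70 in the inputs to 16.40, 16.16 and 15.56 in the eluates (13.04 ± 0.52, adjusted p = 1.36e-21). miR-31-3p kept only 3 eluate reads of 1190 in the input, so its eluate level is near the floor and the size of this change depends on the pseudocount. The miR-199a hairpin went from -3.22, -3.44 and -3.10 to 6.15, 6.67 and 6.02 (9.54 ± 0.35, adjusted p = 3.17e-22), which exchanged a dominant 3p arm for a dominant 5p arm. miR-199a-3p and miR-199b-3p have the same mature sequence, and both names fell (-4.66 and -4.41).

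miR-221 changed by 9.21 ± 0.92 and miR-34b by 8.39 ± 0.86, both toward 5p. miR-221-3p, a miRNA of dividing cells, fell from 17025 ± 5104 to 334 ± 53.3 CPM (-5.60 ± 0.51, adjusted p = 1.94e-08). miR-221-5p rose from 25.6 ± 14.1 to 539.8 ± 369 CPM (3.62 ± 1.16, adjusted p = 0.0089), with eluate C well below A and B. In eluate C the 3p arm still led. miR-221-5p, at 15.2, 41.7 and 19.9 CPM in the inputs, passed the filter on reads only through the eluates, so its direction was fixed by that choice.

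The shift toward 3p was largest in miR-615 (-6.07 ± 0.69, adjusted p = 3.36e-09) and miR-214 (-6.02 ± 0.77, adjusted p = 3.83e-08). miR-214 had nearly equal arms in the inputs (0.63, -0.11 and -0.30) and was almost purely 3p in the eluates (-5.85, -5.92 and -6.07). The 5p arms of miR-615 and miR-214 were near the floor in the eluates, at 2.77 and 9.74 CPM. The size of both changes thus depends on the pseudocount, being -8.53 and -7.56 with a pseudocount of 1. miR-214-3p rose from 328 ± 170.3 to 1228 ± 574 CPM (1.84 ± 0.68, adjusted p = 0.02), a call lost with library totals (0.93, adjusted p = 0.302), with a pseudocount of 1 and without a filter. It was also lost without input A or B or eluate B or C, with adjusted p = 0.0541, 0.0689, 0.0762 and 0.0665. miR-30a (-3.09) and miR-99b (-3.19) also moved toward 3p. Both arms of miR-30a fell, and of miR-99b the 5p arm fell while the 3p arm was not called (-0.81). miR-192 (-3.29 ± 1.00, adjusted p = 0.00563) was at 15.3 CPM for either arm in eluate A and at 16.6 CPM for either arm in eluate B, and its call was lost without eluate C (-2.34, adjusted p = 0.0755).

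**Figure D4:**
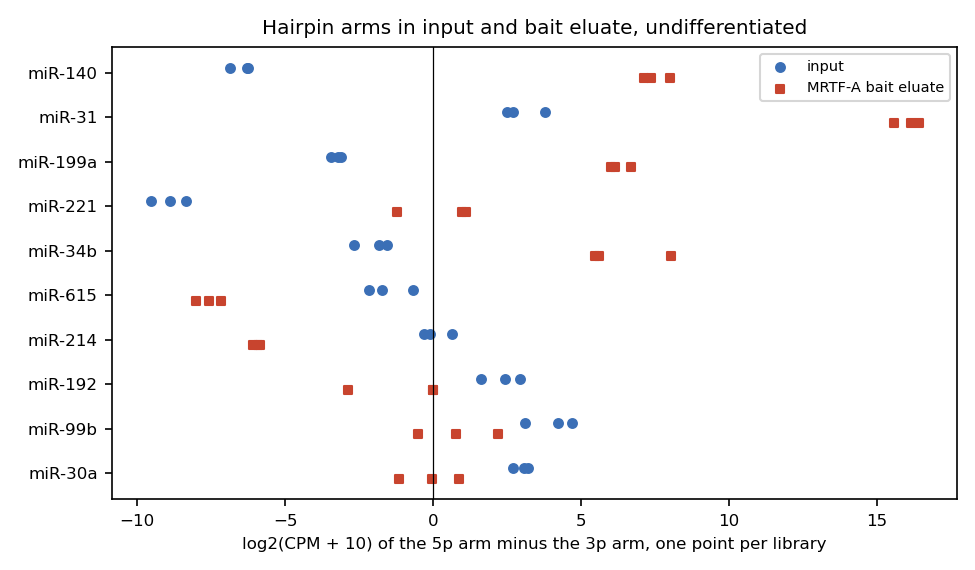
Log2(CPM + 10) of the 5p arm minus the 3p arm by library, inputs as circles and MRTF-A bait eluates as squares, for the 5 hairpins with the largest change toward each arm. Values above 0 mean that the 5p arm was more abundant. miR-140 and miR-199a cross from negative inputs to positive eluates. In all 10 hairpins the 2 groups lie apart, which was a condition of their choice.

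Names with the same seed often differed in their recovery. Mature sequences were matched for 224 of the 268 names (83.6%), and 72 of these fell into 25 seeds shared by at least 2 names. All members rose in 3 of these seeds, all fell in 14, and 2 seeds had members called in both directions. Of the 102 pairs of names with a common seed, 63 differed in their fold change (61.8%), and 40 differed with a pseudocount of 1. These pairs share members, and the test was chosen after the fold changes were seen.

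The widest range within a seed was in let-7. The fold changes of let-7b-5p and miR-98-5p, which differ at 3 of 22 bases, were 6.68 ± 0.74 apart (adjusted p = 1.21e-06). let-7b-5p and let-7c-5p differ at 1 base and were 1.90 ± 0.28 apart (adjusted p = 2.29e-05). let-7a-5p lay -2.84 ± 0.33 from let-7b-5p, at 2 differing bases.

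The miR-181 family, miRNAs of lymphocyte and muscle differentiation, held both directions. miR-181b-5p rose from 140.1, 222 and 229 CPM in the inputs to 889, 881 and 718 CPM in the eluates (2.04 ± 0.64, adjusted p = 0.00771), a call lost with library totals (1.13, adjusted p = 0.216) and with a pseudocount of 1 (2.10, adjusted p = 0.13). miR-181a-5p fell from 1118, 1648 and 2298 to 429, 357 and 302 CPM (-2.14 ± 0.50, adjusted p = 0.000781), a call lost with RLE factors (-0.86, adjusted p = 0.0957). Input and eluate did not overlap in either name. miR-181c-5p fell under all 6 scalings (-3.90 ± 0.37). miR-181d-5p fell as well (-1.87 ± 0.79, adjusted p = 0.0388), a call lost with RLE factors and in edgeR and kept in only 1 of the 6 fits that left out a library. In a direct test miR-181a-5p lay -4.18 ± 0.63 from miR-181b-5p (adjusted p = 2.69e-05). miR-181b-5p and miR-181d-5p, which differ at 1 of the 23 bases they share by position, were 3.92 ± 0.71 apart (adjusted p = 0.000163).

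Members that moved the same way also differed in extent. miR-34a-5p lay -3.68 ± 0.64 from miR-34b-5p and -3.43 ± 0.47 from miR-449a-5p (adjusted p = 1.19e-05). With a pseudocount of 1 these were -4.00 and -6.16, so the order of the gaps depends on it. miR-221-3p fell more than miR-222-3p, with a difference of -3.75 ± 0.61 (adjusted p = 6.69e-05). miR-222-3p itself fell (-1.85 ± 0.43), a call lost with RLE factors, in edgeR and in DESeq2. miR-30a-5p and miR-30e-5p, which differ at 1 base, did not differ beyond error (-0.83 ± 0.61, adjusted p = 0.251).

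Names with a seed match in the annotated Mrtfa 3′UTR included some of the strongest rises and some of the strongest falls. The UTR of transcript ENSMUST00000134469.7 spans chr15:81012281-81013284 on the minus strand of GRCm38, 1004 bases in 1 exon. A match was counted where bases 2 to 8, or bases 2 to 7 followed by an A, found their complement in the UTR. Of the 224 names with a sequence, 32 had a match (14.3%). Over 10149 mouse 3′UTR windows of the same length the median share was 12.05%, with 6.70% to 20.1% spanning the central 95% of windows. Of the 32 names with a match 13 rose (40.6%) and 12 fell, with a median of 0.51. Of the 192 without a match 39 rose (20.3%) and 107 fell, with a median of -1.83. The median of names with a match turned to -0.32 with library totals, where that of the others was -2.42. These counts are a description without a test, and names that share a seed share their match.

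**Figure D5:**
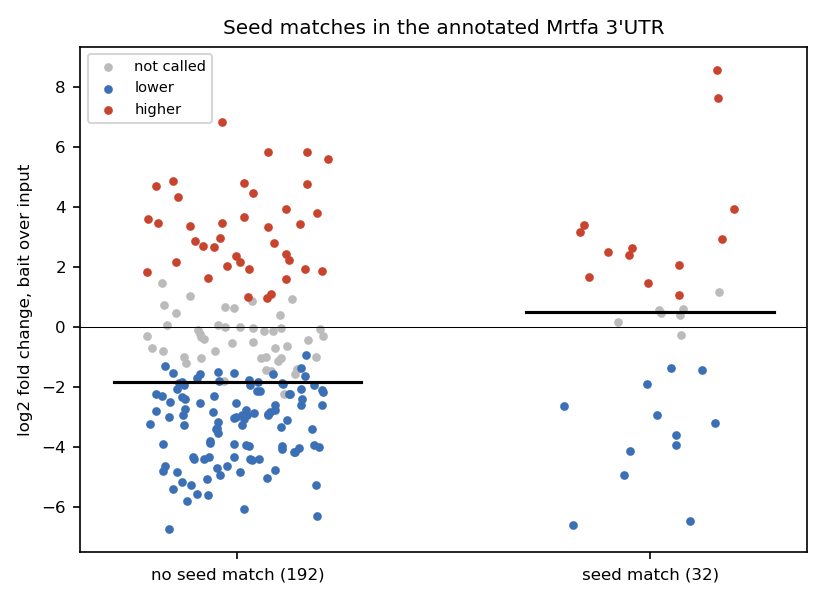
Log2 fold change of bait over input for the 192 names without and the 32 names with a seed match in the annotated Mrtfa 3′UTR, with 1 point per name and a bar at the median. Red points rose, blue points fell and grey points were not called. Names with a match span both the strongest rises and some of the strongest falls, with medians of 0.51 and -1.83 for names with and without a match.

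miR-31-5p and miR-3103-3p were the most enriched names with a match. The letters that miR-31-5p matches, in either form, occur in 14.2% of the mouse windows, those of miR-3103-3p in 9.87% and those of miR-206-3p in 13.5%. miR-188-5p, whose match covers bases 2 to 8 followed by an A, rose from 22.7 ± 8.09 to 169.5 ± 18.1 CPM (2.48 ± 0.43, adjusted p = 4.4e-05). miR-188-5p passed the filter on reads only through the eluates, so its direction was fixed by that choice. Of the other names with this longest form of match, miR-345-5p fell (-3.62 ± 0.61, adjusted p = 3.69e-05), and miR-25-5p (1.18), miR-129b-3p (0.57) and miR-7667-3p (0.18) were not called. Of the further names with a match, singled out after their values were seen, miR-324-3p (2.92 ± 0.67) and miR-296-5p (2.64 ± 0.43) rose. The call of miR-324-3p was lost with a pseudocount of 1. A match went with a fall in miR-21a-5p (-6.48), miR-770-3p (-6.61), miR-128-3p (-4.94), miR-27a-3p and miR-27b-3p. miR-199a-5p, let-7b-5p and the sequences of the third set rose with no match in this window. Names without an entry in the sequence table include miR-140-5p, miR-34c-5p, miR-301b-3p and miR-185-5p.

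The names that rose and the names that fell were alike in base composition, and those not called were richer in GC. Median GC content was 48.9% among names that rose, 47.8% among those that fell and 57.1% among those not called, and median length was 22 bases in each class.

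Most names that rose over input and could be tested were also above the eluate labelled as MS2 control. In undifferentiated cells 122 names could be tested between bait and control, with 68 higher (55.7%) and 22 lower (18%) with the bait. This balance depended on the scaling, and with library totals it was 49 higher and 48 lower, with a median of 0.34 against 2.10. Of the 70 names that rose over input, 52 were among them, and 45 were also higher than the control while 2 were lower. Control libraries held 20525 to 39695 reads and were the shallowest of these groups. miR-31-5p was at 4595, 2279 and 2113 CPM in the 3 controls, below all bait eluates (8.77 ± 0.35, adjusted p = 4.74e-14). miR-140-5p (8.73 ± 0.47), miR-34c-5p (7.70 ± 0.34), miR-199a-5p (6.95 ± 0.32) and let-7b-5p (5.55 ± 0.33) exceeded the control as well.

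Other names separated the reference groups. miR-615-3p rose over input from 371 ± 105 to 2371 ± 397 CPM (2.67 ± 0.41, adjusted p = 1.25e-05) but stood at 154347, 143625 and 165833 CPM in the controls. Bait over control was therefore negative, at -6.03 ± 0.40 (adjusted p = 3.93e-11). miR-5099 rose over input (3.83 ± 1.01, adjusted p = 0.00216) with eluates at 7865, 50675 and 21690.4 CPM and controls at 12734, 180255 and 115735 CPM, which overlap. miR-188-5p did not differ between bait and control beyond error (0.52 ± 0.43, adjusted p = 0.272). Of the 139 names that fell below input 39 could be tested over the control, with 10 higher and 9 lower. miR-21a-5p stood at 9949 ± 3895 CPM in the control, and bait over control was -0.82 ± 0.34 (adjusted p = 0.0345).

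Whether the enrichment differed between myoblasts and cells differentiated for 7 days was asked with the interaction of bait and state. Of 346 names tested 79 passed (22.8%), 19 with a larger and 60 with a smaller bait over input difference in myoblasts. This balance turned with the scaling, to 24 and 5 with RLE factors, 33 and 4 in edgeR and 28 and 9 in DESeq2. No difference beyond error was found for several leading names. It was 0.61 ± 0.48 for miR-31-5p (adjusted p = 0.388), 0.65 ± 0.68 for miR-140-5p (adjusted p = 0.511) and -0.15 ± 0.49 for miR-34c-5p (adjusted p = 0.836). For miR-21a-5p the difference was -0.61 ± 0.44 (adjusted p = 0.345), and for let-7b-5p -0.01 ± 0.47 (adjusted p = 0.988). The rises of let-7a-5p (-2.27 ± 0.51, adjusted p = 0.00582) and miR-199a-5p (-1.78 ± 0.47, adjusted p = 0.013) were smaller in myoblasts, each under 3 of the 6 scalings.

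The largest difference was that of miR-7a-5p, a miRNA of neural and endocrine cells. In myoblasts it fell from 1696, 1192 and 2298 to 30.7, 41.5 and 37.8 CPM (-5.18 ± 0.44, adjusted p = 7.3e-09), whereas differentiated cells had 12.7 ± 8.61 CPM in the input and 20.4 ± 2.94 CPM with the bait. The eluates of both states were thus low and near each other, and it was the inputs that stood apart. The difference of -5.66 ± 0.59 (adjusted p = 3.08e-06) passed under all 6 scalings. let-7f-1-3p (-3.78 ± 0.65) passed under all 6 as well, miR-125a-3p (-3.65 ± 0.70) under 5, and miR-872-5p (-4.52 ± 1.06) and miR-151-5p (-3.26 ± 0.66) under 4.

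In the other direction, miR-6236 fell less in myoblasts, from 224 ± 43.8 to 79.6 ± 62.1 CPM, than in differentiated cells, from 713 ± 24.7 to 15.7 ± 17.6 CPM (3.45 ± 0.81, adjusted p = 0.00794, passed under all 6). With a pseudocount of 1 this difference was lost (adjusted p = 0.0703). The myoblast fall of miR-6236 was not called with RLE factors, in edgeR, in DESeq2 or with a pseudocount of 1. It was also lost without eluate A, eluate B or input C. miR-669l-5p (3.71 ± 0.65), miR-7649-3p (3.34 ± 0.70) and miR-7212-5p (2.61 ± 0.36) passed under 4 scalings, and miR-6999-3p (3.27 ± 0.97) under 2. In both states these 4 names were close to 0 in the input, and their myoblast eluates were higher. miR-7649-3p was at 1298 ± 522 CPM in the myoblast and 114 ± 37.8 CPM in the differentiated eluate. With a pseudocount of 1 its difference between states was lost (adjusted p = 0.204), as was that of miR-6999-3p (adjusted p = 0.471).

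The labelled cell type was checked on its markers. All 3 myoblast markers had reads, and both miR-133 names were detected in every input. The myoblast list took 0.0441% to 0.384% of input reads. This range overlapped those of the blood and neural lists and lay below that of the endothelial and smooth muscle list. The myotube markers miR-499-5p and miR-208b-3p had no read in the 6 libraries and miR-1a-3p none in the input. Markers of other cells were not all low in the inputs. Of the 6 blood markers among the deposited names, 4 had no read in the 6 libraries, as had 4 of 7 epithelial markers. The neural marker miR-129-5p had 911 input reads, against 1194 for miR-133b-3p, 725 for miR-133a-3p and 152 for miR-206-3p. Nearly all reads of the blood list were of miR-486-5p, which muscle also expresses (3843 in the inputs). The epithelial list took 0.00163% to 0.00952% of input reads and 0.000284% to 0.00187% of eluate reads. The neural list took 0.0989% to 0.118% of input reads, and its 3 tested members fell, as did 51.9% of all names. Among them miR-128-3p had no eluate read, miR-9-5p had 7 and miR-129-5p had 11. None of these 3 names would have passed the filter on reads on its eluates alone, so their shared direction went with that choice. The endothelial and smooth muscle list had the largest share of these lists, with 1.97% to 3.06% of input reads and 0.0403% to 0.0858% of eluate reads. Nearly all of these input reads (35793) were of miR-143-3p, which fell from 27668 ± 424 to 1341 ± 174 CPM (-4.36 ± 0.30, adjusted p = 4.76e-10). The part of these lists in the results was not tested.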

How the data were processed

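Small RNA was sequenced from the input RNA and from eluates, with 50 bp reads, per the labels' protocols. The submitters' processing notes list edgeR 3.18.1, featureCounts 1.4.6, Bowtie2 2.0.13 and cutadapt 1.4.2, with GRCm38/mm10. Settings, strand and the counting of multiply matching reads are not given in the sources. The deposited signal is a normalised CPM made by the authors. Its values were whole multiples of a step in every library (100% within 0.01 read), so whole reads were recovered. The authors' deposited log2 fold changes and their p-values with FDR, per the file headers, served only for counts of calls.

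The design planned edgeR for counts. Because the values are a normalised signal, limma 3.58.1 (trend, R 4.3.3) on log2(CPM + 10) over all 18 libraries was used instead, after filterByExpr on recovered reads, with Benjamini-Hochberg adjustment and a threshold of 0.05. edgeR 4.0.16 and DESeq2 1.42.0 ran on recovered reads as alternatives. Other alternatives were 3 scalings, pseudocounts of 1 and 50, other filters, fits to fewer libraries, a replicate block and leaving out each library. Fits were tested on simulated data. Python 3.11.15 (matplotlib 3.10.9, scipy 1.17.1, pandas 2.3.3, numpy 2.4.6) made tables, sites and figures.

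Named miRNAs are the 12 largest rises and 12 largest falls that were called, did not overlap between groups and reached 50 CPM on average in one of them. To these come the 5 most abundant names of each group, the 5 largest differences each way between states and between arms, and list examples. The members and lists were chosen with earlier results of these data known. Mature sequences are from RefSeq (GRCm38.p6) and the 3′UTR from GENCODE vM21. Ratios with 1 to 3 reads carry exact binomial intervals (95%) on pooled reads. Intervals and floors (3 reads per library) cover counting error only, since reads carry no molecular identifiers.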

Additional observations from a re-analysis of the deposited data

Results flagged for a closer look

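The following names had a bait over input difference that differed between undifferentiated and differentiated cells in limma's interaction test over 346 names. Values are myoblasts minus differentiated cells on the log2 scale. Below the differentiated value were miR-7a-5p (-5.66), miR-872-5p (-4.52), let-7f-1-3p (-3.78), miR-125a-3p (-3.65), miR-151-5p (-3.26), miR-31-3p (-3.01), miR-615-5p (-2.97), miR-128-3p (-2.42), miR-214-5p (-2.37), miR-22-3p (-2.01), miR-222-3p (-1.96), miR-770-3p (-1.95), miR-199a-5p (-1.78) and miR-143-3p (-1.20). The let-7 members let-7a-5p (-2.27), let-7e-5p (-1.96), let-7i-5p (-1.90), let-7d-5p (-1.63), let-7f-5p (-1.53) and let-7c-5p (-1.34) were also below it. Above it were miR-669l-5p (3.71), miR-6236 (3.45), miR-7649-3p (3.34), miR-6999-3p (3.27), miR-7212-5p (2.61), miR-362-3p (2.18), miR-449a-5p (2.09) and miR-449c-5p (1.58). Of these 28 names, let-7f-1-3p, miR-6236 and miR-7a-5p passed under all 6 scalings and tests, though miR-6236 did not pass with a pseudocount of 1. The sign turned under at least 1 of them for let-7c-5p, let-7d-5p, let-7f-5p, miR-143-3p, miR-31-3p and miR-449c-5p.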

How the results depend on the processing

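Without a filter the calls of bait over input rose from 209 to 331, of them 240 lower, those of arms to 101 and those over the MS2 control to 190, or 163 with a mean of at least 50 CPM. Library totals gave 49 higher and 48 lower over the control, against 68 and 22. The differences between states fell from 79 to 44 with library totals, 29 with RLE factors, 37 in edgeR, 37 in DESeq2, 32 with a pseudocount of 1 and 39 without a filter. The median of names with a seed match was 0.51, turned to -0.32 with library totals, and ran from 0.32 to 0.76 when 1 library was left out. For names without a match it was -1.83, with -2.10 at a pseudocount of 1, -2.42 with library totals and -1.97 to -1.69 when 1 library was left out. Same-seed pairs that differed numbered 40 with a pseudocount of 1, chosen after seeing the data. Signs turned for miR-6244 (0.94 with RLE factors, 0.86 in edgeR and 0.81 in DESeq2), let-7i-5p (-0.27 with library totals) and miR-486-5p (-1.08 and called with library totals, 1.12, 1.29 and 1.21 in the same 3 fits, 0.04 without input A and 0.21 without eluate C, the range when 1 library was left out being -0.64 to 0.21). The cause was not tested. Leaving out 1 library gave 168 to 244 calls. A read in the eluates was worth 8.31 to 15.3 CPM, which limits falls of scarce names.

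The replicate numbers were not taken to pair the libraries, since same-suffix deviations correlated at -0.02, 0.19 and 0.09 for A, B and C. With a replicate block, 211 names were called (70 higher and 141 lower), 88 differences between states, 25 arms and 94 over the control.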
